A study of Mus musculus with 36 samples.

Results

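The core circadian clock genes are described here in the livers of 36 mice: Arntl, Clock and Npas2, which encode the activators of the clock, Per1, Per2, Per3, Cry1 and Cry2, which encode their repressors, and Nr1d1 and Nr1d2, which encode nuclear receptors of an additional loop. Their probes were found by gene name or accession, with no use of measured values. These 10 genes have 18 of the 41174 probes on the array, and 14 of these probes, for 8 genes, are among the 21781 probes of the authors' processed table. Npas2 and Cry1 have no probe in that table.

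Liver RNA of adult male C57BL/6J mice (C57BL/6JOlaHsd in the study's methods) was hybridized to Agilent whole genome mouse arrays, 1 array per mouse. All mice first ate a mild-high-fat diet with 30% of its energy as fat, for 3 weeks according to the sample labels. The study's methods give 2 weeks of adaptation. The t=0 group of 12 mice was killed at the end of this adaptation. The HF group of 12 mice stayed on the same diet for 12 weeks more, and the HF-Q group of 12 mice received it for 12 weeks with 0.33% (w/w) quercetin, the main flavonol of the human diet. HF and HF-Q are called the control and the quercetin group, and t=0 the baseline group. Mice of the 3 groups had fasted for at least 2 h. The baseline mice were killed before these 12 weeks, so that age and time on the diet cannot be told apart in any comparison with them. The clock time at which livers were taken, and its order over the groups, is not given in the sources used here. Diet and time of killing can therefore not be told apart in any difference between groups below. Whole liver was used, so that fewer cells of a type and less RNA per cell cannot be told apart in any value below.

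The circadian clock is a feedback loop that runs in nearly every cell and gives many transcripts a daily rhythm. Arntl (also called Bmal1) pairs with Clock, or with its relative Npas2, binds E-boxes and drives the Per and Cry genes, whose proteins return to the nucleus and block the activators. Nr1d1 and Nr1d2 (Rev-erb alpha and beta) are driven from E-boxes too and repress Arntl through ROR elements, so that in liver Arntl mRNA is high when the mRNA of these repressors is low, and feeding time is a strong cue for the phase of this tissue.

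The start sites of 9 of the 10 genes are in the RefSeq promoter table of build GRCm38.p6, and 4 of their 13 windows (250 bases before to 50 bases after the start) hold 1 of 4 motifs that were searched on both strands. The motifs were the E-box CACGTG, the D-box TTATGTAA, to which Dbp, Tef and Hlf bind, and the ROR element cores TAGGTCA and TGGGTCA. These 4 stretches are shown because they carry the letters of known clock binding elements, with the motif in capitals.
Arntl, ROR element core 31 bases after the start, chr7:113207530-113207559, plus strand: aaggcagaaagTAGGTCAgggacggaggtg
Per1, E-box 166 bases before the start, chr11:69098758-69098813, plus strand: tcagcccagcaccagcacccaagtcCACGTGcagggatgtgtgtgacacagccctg
Cry1, E-box 60 bases before the start, chr10:85185084-85185139, minus strand: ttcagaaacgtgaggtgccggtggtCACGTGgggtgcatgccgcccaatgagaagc
Per3, D-boxes 205 and 158 bases before the start, chr4:151044801-151044885, minus strand: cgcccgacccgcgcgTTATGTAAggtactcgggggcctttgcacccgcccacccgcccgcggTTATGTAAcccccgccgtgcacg
Of all 32851 windows in the table, 7.15% hold the E-box, 0.938% the D-box, 2.61% TAGGTCA and 3.98% TGGGTCA. A match is a matter of letters, and binding was not measured.

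Every value below is the authors' log2 signal of the mouse's own Cy5-labelled cRNA, scaled against a Cy3-labelled pool of all samples on the same array. Levels are compared between groups for the same probe, never between probes. The 36 arrays lie on 9 slides of 4, and each slide holds all 3 groups. The array of quercetin replicate 2 stood apart: 96.7% of its Cy5 spots were well above background, against 56.4% to 67.4% on the other arrays, and its part is given beside the results that changed without it. By median correlation with the arrays of its own group, control replicate 5 was lowest, at 0.9718, against 0.9882 for quercetin replicate 2. Control replicate 5 was the lowest control liver for Clock and the highest for Per2, Per3 and Cry2. No comparison of groups was repeated without it. The hepatocyte markers were present in each group, with the summed level of 5 marker genes at 19.55 to 20.31 at baseline, 19.76 to 20.24 in the control livers and 19.66 to 20.48 in the quercetin livers (log2). Groups were compared by limma with Benjamini-Hochberg adjustment over all 21781 probes, and a gene is said to have risen or fallen only at an adjusted p under 0.05.

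Between the quercetin and the control group, Arntl and Clock were lower and Per3 and Nr1d2 higher in quercetin-fed mice. Arntl, with the largest difference among the 8 genes measured, was 2.0-fold lower, Clock was 1.38-fold lower, and Per3 and Nr1d2 were each 1.34-fold higher. In all 5 of 14 probes (35.7%) were called, 3 lower and 2 higher, against 2.36% of all probes (0.863% lower and 1.49% higher). The genes were chosen with earlier results of these data known, so that this count is no independent support. The median size of the log2 difference was 0.42 over the 8 genes, each by its brightest probe, and 0.074 over all probes. With quercetin replicate 2 left out, 5 clock gene probes were called as well.

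**Figure D1:**
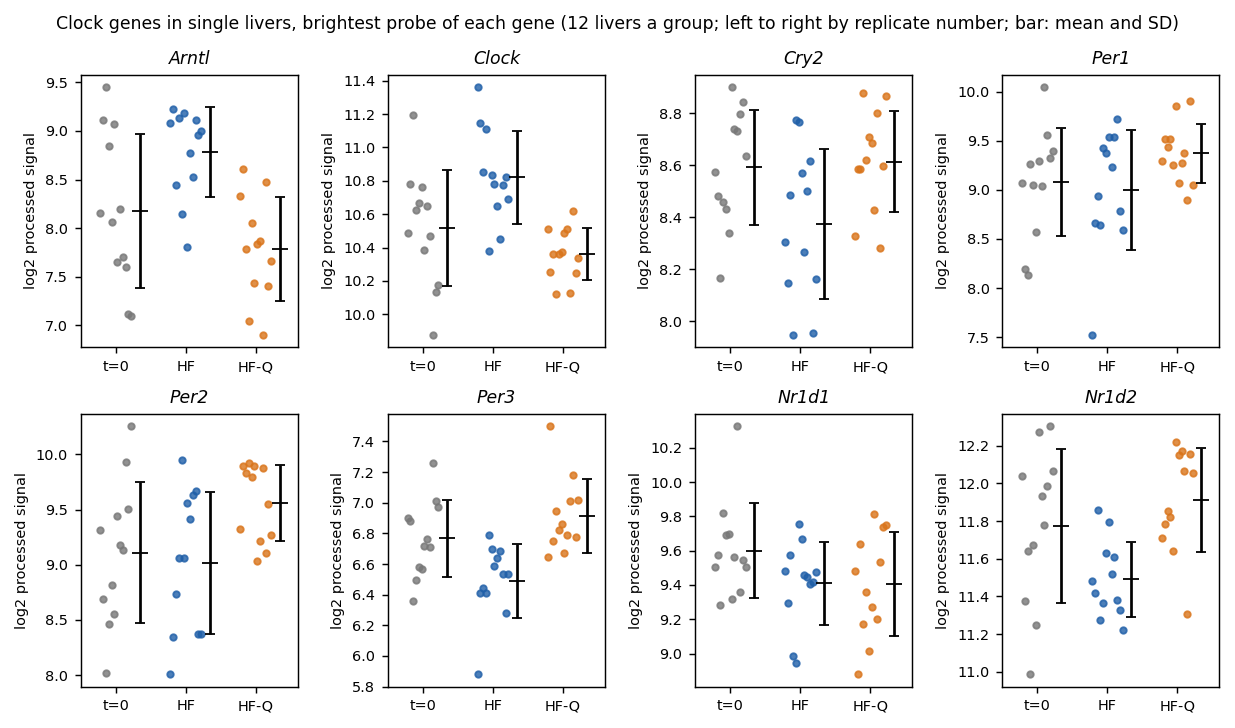
Log2 processed signal of the brightest probe of each of the 8 measured clock genes (y axis) in single livers of the t=0, HF and HF-Q groups (x axis), 12 livers a group, placed from left to right by replicate number, with black bars for the mean and SD. All 12 quercetin livers lie below the control median for Arntl and Clock and above it for Per3, whereas Nr1d1 overlaps fully.

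Of the activators, Arntl (probe A_52_P267651, chromosome 7, 113104645 to 113104704 of build mm8, which the array files use) ranged from 7.80 to 9.23 in the control livers with a median of 8.98. In the quercetin livers it ranged from 6.90 to 8.61 with a median of 7.81. The groups overlapped, but 6 of 12 quercetin livers lay below the lowest control liver and 8 of 12 control livers above the highest quercetin liver. The mean was 7.78 ± 0.53 (SD, n = 12) in the quercetin and 8.78 ± 0.46 (SD, n = 12) in the control group, a log2 difference of -1.0 (95% interval -1.38 to -0.62, adjusted p = 0.0034, limma). Under 15 alternative settings the difference lay between -1.30 and -0.76, and the adjusted p between 0.000267 and 0.0263. Within slides, 8 of 9 slides had Arntl lower in quercetin livers, with a median of -0.75. The lowest slide was at -1.73 and the other slide at 0.03.

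Clock, the partner of Arntl, has 3 probes in the processed table. The brightest, A_52_P334670 (chromosome 5, 77287127 to 77287186), ranged from 10.38 to 11.36 in the control and from 10.12 to 10.62 in the quercetin livers, with medians of 10.80 and 10.36. All 12 quercetin livers were below the control median and 8 of 12 below the lowest control liver. The log2 difference was -0.46 (standard error 0.09, adjusted p = 0.00437, limma). Probe A_52_P334677, close by on the same transcript, gave -0.38 (adjusted p = 0.00984). The third, A_52_P279391, is dimmer, carries a different accession and was not called at -0.16 (95% interval -0.38 to 0.05, adjusted p = 0.45). With the slide as a fixed block the called Clock probes gave -0.42 (adjusted p = 0.0526) and -0.33 (adjusted p = 0.0567), above the threshold. The correlation between arrays of a slide, as limma estimated it over all probes, was -0.0351, and all 9 slides had both probes lower in quercetin livers. Over the 15 alternatives the adjusted p of the brightest probe ranged from 0.000839 to 0.0526 and that of A_52_P334677 from 0.00104 to 0.0567.

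Npas2, which can take the place of Clock, was close to background: its probe was well above background on 0 of 12 baseline, 1 of 12 control and 1 of 12 quercetin arrays. No fold is therefore given. The last Clock probe, A_52_P161365, was dim as well, at 1.72 times background in Cy5, and outside the processed table. On log2 Cy5 over Cy3 values computed from the scanner files it stood at 0.08 in the control livers and -0.01 in the quercetin livers (adjusted p = 0.335, limma over all 41174 probes).

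Of the repressors, Per3 rose. Its probe (A_51_P258493, chromosome 4, 149848947 to 149849006) ranged from 5.88 to 6.79 in the control and from 6.65 to 7.50 in the quercetin livers, with medians of 6.53 and 6.84. All 12 quercetin livers were above the control median and 8 of 12 above the highest control liver, and the 9 slides each had it higher. The log2 difference was 0.42 (standard error 0.09, adjusted p = 0.0134, limma). This probe is dim, at 2.29 times background in Cy5, and was well above background on 9 of 12 control and 12 of 12 quercetin arrays. Its highest value, 7.50, is on the array of quercetin replicate 2, without which the difference was 0.37 (adjusted p = 0.0175). The size depended on the processing: it was 0.09 (adjusted p = 0.353) after normexp and loess, 0.35 (adjusted p = 0.10) after normexp with median centring in place of loess and 0.65 (adjusted p = 0.0716) with Feature Extraction's processed signals, and over 14 alternatives the adjusted p ranged from 0.00502 to 0.49.

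Per1 and Per2 had larger spreads and did not pass the test. Per2 (A_51_P282760, chromosome 1) ranged from 8.01 to 9.95 in the control and from 9.04 to 9.92 in the quercetin livers, with medians of 9.06 and 9.68. Its log2 difference was 0.55 (95% interval 0.15 to 0.94, unadjusted p = 0.00901, adjusted p = 0.152), and 11 of 12 quercetin livers lay above the control median. The other Per2 probe, A_52_P536869, lies further towards the start of the gene and gave 0.06 (95% interval -0.09 to 0.20), or 0.01 without quercetin replicate 2. The difference between the Per2 probes was not tested. Per1 (A_52_P79889, chromosome 11) ranged from 7.52 to 9.72 in the control and from 8.90 to 9.90 in the quercetin livers, and its difference was 0.37 (95% interval 0.00 to 0.75, adjusted p = 0.323).

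For the cryptochromes, which act with the Per proteins, Cry2 had a difference of 0.24 on its brighter probe, A_52_P248378 (chromosome 2, 95% interval 0.04 to 0.44, adjusted p = 0.211). The quercetin livers lay at 8.28 to 8.88 and the control livers at 7.95 to 8.77, overlapping for the most part. On the dimmer probe A_51_P135542 the difference was 0.21 (adjusted p = 0.221), with quercetin replicate 2 as the highest value, 7.52. Cry1 has 2 probes on chromosome 10, both near background (1.71 and 1.77 times in Cy5) and outside the processed table. Each was well above background on 3 to 9 of 12 arrays of a group, and in the log2 ratios computed from the scanner files their differences were -0.01 (adjusted p = 0.979) and -0.10 (adjusted p = 0.57).

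Of the Rev-erb genes, Nr1d2 rose and Nr1d1 was not called. Nr1d2 (A_52_P303891, chromosome 14, 16997805 to 16997864) ranged from 11.22 to 11.86 in the control and from 11.31 to 12.22 in the quercetin livers, with medians of 11.45 and 11.95. Quercetin livers were above the control median in 11 of 12 cases, and 6 of 12 lay above the highest control liver. The log2 difference was 0.42, with a standard error of 0.09 (limma, adjusted p = 0.0135), and 8 of 9 slides had it higher. With the slide as a block the difference was 0.41 (adjusted p = 0.0719), and with the Cy5 channel alone 0.32 (adjusted p = 0.0991). The adjusted p ranged from 0.00397 to 0.0991 over 15 alternatives. Nr1d1 has 3 probes on chromosome 11, whose differences were 0.00, -0.03 and -0.01. The brightest, A_51_P223776, ranged from 8.95 to 9.76 in the control and from 8.88 to 9.81 in the quercetin livers, and the interval of its difference ran from -0.22 to 0.21, which leaves out a change of the size seen for Nr1d2 (0.42).

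**Figure D2:**
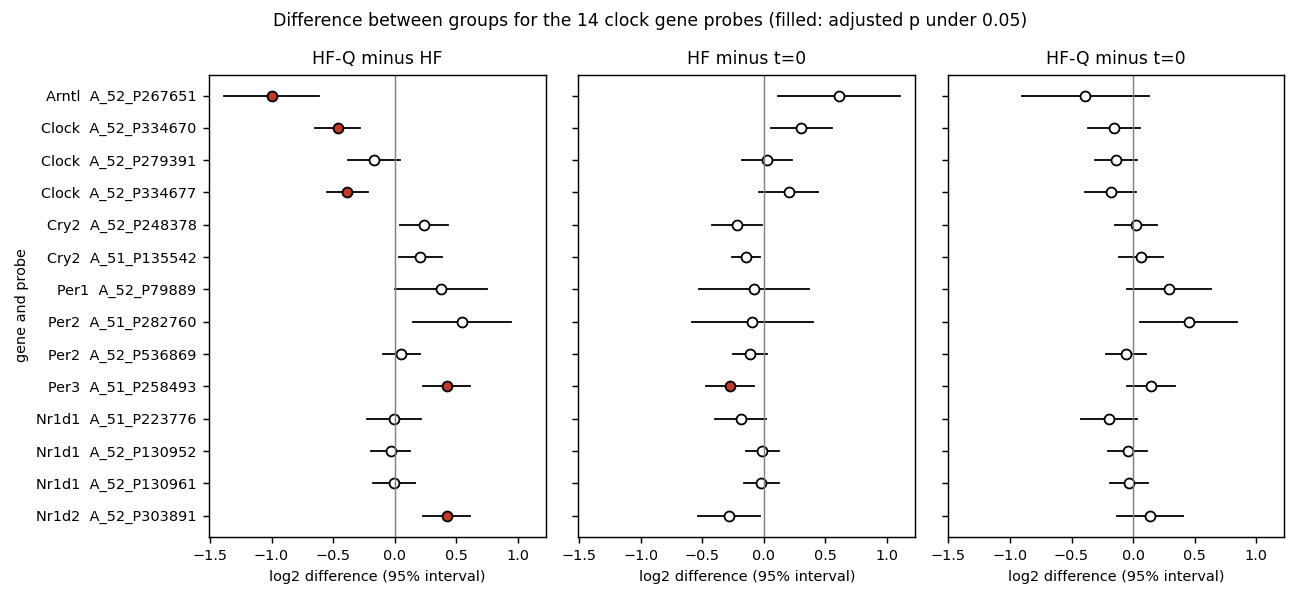
Log2 difference between groups (x axis) with its 95% interval for the 14 clock gene probes of the processed table (y axis), in 3 comparisons that share groups with each other. Filled points passed the adjusted p of 0.05: 5 probes between HF-Q and HF, 1 between HF and t=0, and 0 between HF-Q and t=0.

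Against the baseline group, fewer clock gene probes were called. Between the control and the baseline group 1 of 14 probes (7.14%) was called, against 21.3% of all probes (10.9% higher and 10.4% lower), and between the quercetin and the baseline group 0 of 14, against 11.9% (6.62% higher and 5.3% lower). The unadjusted p of limma was under 0.05 for 6 of 14 probes in the former, against 35.5% of all probes, and in the latter for 1 probe (Per2), against 26.5%. The median size of the difference over the 8 genes was 0.25 and 0.18, against 0.109 and 0.087 over all probes. Between quercetin and baseline, each of the 15 alternatives, the methods' t-test among them, called 0. The 3 comparisons share their groups and are not independent of each other. The called gene was Per3, which was lower after 12 weeks of the control diet than at baseline, with a difference of -0.28 (adjusted p = 0.0379, limma), where the baseline livers ranged from 6.36 to 7.26. In 9 of 13 alternatives Per3 was not called, with adjusted p from 0.0189 to 0.643 over all of them. It rested on the liver of control replicate 1, the lowest for Per3 at 5.88: without it the difference was -0.22 (adjusted p = 0.0599), and 0 of 14 clock gene probes were called.

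Arntl was 0.61 higher (95% interval 0.12 to 1.1) in the control than in the baseline livers, and Clock 0.30 higher (95% interval 0.06 to 0.55), but neither passed (adjusted p = 0.0695 and 0.0702). Arntl was called in 3 of 14 alternatives, with adjusted p from 0.028 to 0.17, and Clock in 2 of 14, with adjusted p from 0.0288 to 0.194. With the replicate number as a block, Arntl was called (adjusted p = 0.0455) and Per3 was not (adjusted p = 0.0609). Nr1d2 was 0.29 lower in the control livers (adjusted p = 0.0935), with all 12 below the baseline median. In the quercetin livers Arntl was 0.39 lower than at baseline (95% interval -0.90 to 0.13, adjusted p = 0.338), and Per2 was 0.45 higher (95% interval 0.06 to 0.85, adjusted p = 0.127).

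The order of the 3 means differed between the sides of the loop. For Arntl and Clock the control group was highest, the baseline group next and the quercetin group lowest. For 5 genes, Per1, Per2, Per3, Cry2 and Nr1d2, it was the reverse on the brightest probe, and Nr1d1 followed neither order. This order was loose for Cry2, whose quercetin mean was above the baseline mean by 0.02 and below it in 5 of 15 alternatives, and for Per1, whose control mean was above the baseline mean by 0.05 without control replicate 1. The control mean of Per2 was also above the baseline mean in 1 alternative, and the other Per2 probe had the baseline group highest. In most cases a group did not differ from its neighbour in this order: of the neighbouring groups only control and baseline for Per3 passed the test, and the highest and lowest groups differed by the test for Arntl, Clock, Per3 and Nr1d2.

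The spread between livers of the same group was wide for several clock genes. The SD of Arntl was 0.79 at baseline, 0.46 in the control livers and 0.53 in the quercetin livers (log2), above 99.7%, 97.1% and 98.3% of all probes in the same group. The median SD of all probes was 0.162, 0.174 and 0.173. Of the 14 clock gene probes, 6 at baseline, 4 in the control livers and 2 in the quercetin livers had an SD above the 90th percentile of all probes. No test was made of these SDs.

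**Figure D3:**
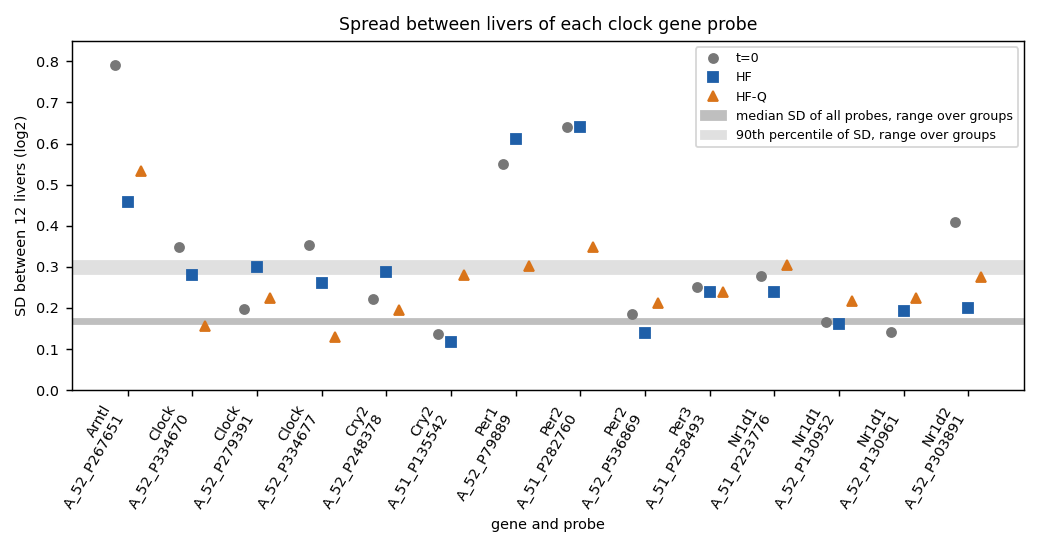
SD between the 12 livers of each group (y axis, log2) for the 14 clock gene probes (x axis), with bands for the median and the 90th percentile of the SD over all probes. Arntl, Per1 and the brighter Per2 probe lie far above the bands at baseline and in the control group, and the Nr1d1 probes lie near or between the bands.

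Inside the baseline group Arntl spanned 2.35 on the log2 scale, or 5.10-fold between the lowest and the highest liver. Per2 spanned 4.71-fold (8.02 to 10.26) and Per1 3.76-fold (8.14 to 10.05), while Clock and Nr1d2 spanned 2.49-fold each. In the control group the span was 2.69-fold for Arntl, 4.59-fold for Per1 and 3.85-fold for Per2. The Per1 span rested on control replicate 1, the lowest liver at 7.52, without which it was 2.18-fold. In the quercetin group it was 3.27-fold for Arntl and at most 2.01-fold for Per1, Per2 and Clock. Per1 and Per2 had SDs of 0.61 and 0.64 in the control livers, 0.55 and 0.64 in the baseline livers and 0.30 and 0.35 in the quercetin livers. Without control replicate 1 the control SDs were 0.42 and 0.58. The SD of Clock was 0.35 at baseline, 0.28 in the control livers and 0.16 in the quercetin livers. Nr1d2 had an SD of 0.41 at baseline against 0.20 in the control group, whereas the SD of the brightest Nr1d1 probe was 0.24 to 0.30 in every group, or 0.17 at baseline without replicate 9, its highest liver.

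The baseline livers that carry replicate numbers 1 to 6 had Arntl at 8.06 to 9.45, and those numbered 7 to 12 had it at 7.10 to 8.20. Per2 lay at 8.02 to 9.32 and 9.13 to 10.26 in the same livers. The labels give the numbers no meaning, and this split was made with its values known, so it is a description without a test. The difference between the higher and the lower numbers was -1.22 for Arntl at baseline, but -0.18 in the control livers and -0.19 in the quercetin livers, and for Per2 it was 0.93, 0.31 and -0.43. In the same order of groups it was -0.47, -0.25 and 0.06 for Clock and 0.73, 0.47 and -0.21 for Per1. Per3 stood at 0.275, 0.11 and -0.01 and Cry2 at 0.37, -0.06 and -0.01. For Nr1d2 the values were 0.56, -0.03 and 0.15, and for Nr1d1 0.01, 0.14 and 0.29, each by the brightest probe.

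Across the baseline livers many clock genes varied together, and fewer pairs passed the test in the other groups. The 28 pairs of the 8 measured genes were tested in each group by Pearson's r and Spearman's rho with 100000 permutations (two-sided), adjusted over the 84 tests of each kind. By r, 14 of 28 pairs passed at baseline, 6 in the control livers and 3 in the quercetin livers, and the median size of r was 0.70, 0.49 and 0.38. The sign of r was the same in the 3 groups for 21 of 28 pairs. Whether the correlations differ between groups was not tested. At baseline they run across the lower and the higher replicate numbers and were not computed inside either set. When each liver was taken is not given, and its part in this co-variation was not tested.

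**Figure D4:**
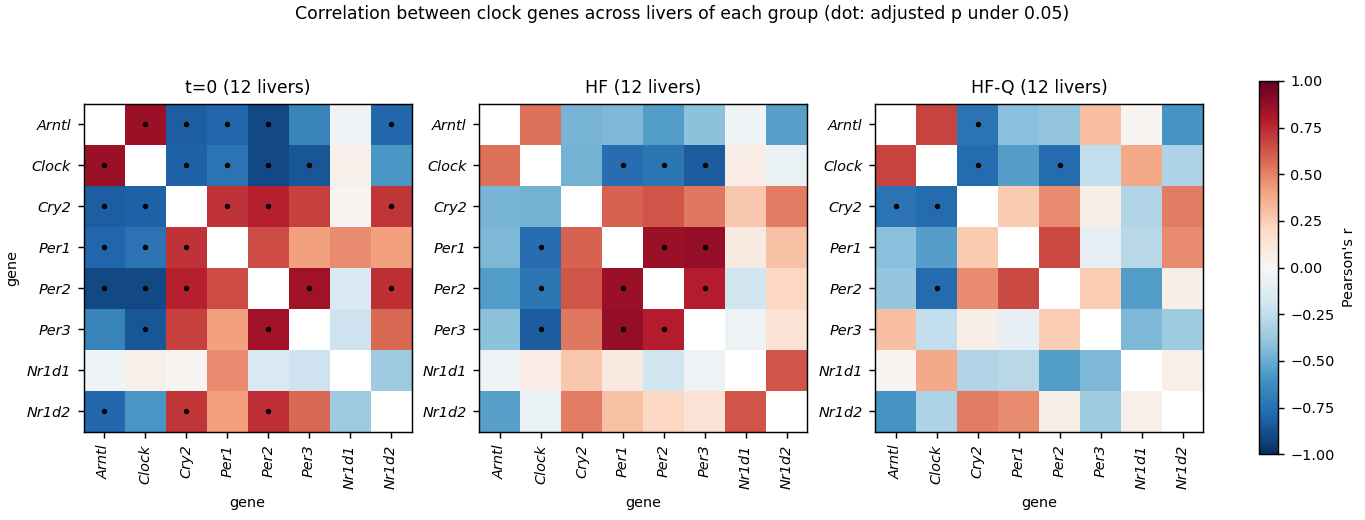
Pearson's r (colour) between the 8 measured clock genes across the 12 livers of each group, with a dot where the adjusted p is under 0.05. At baseline Arntl and Clock form a block against Cry2, Per1, Per2, Per3 and Nr1d2, which is paler in the control and quercetin groups, and Nr1d1 has no dot in any group.

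At baseline Arntl and Clock varied in the same direction (r = 0.87, adjusted p = 0.00357; rho = 0.92, adjusted p = 0.00378; permutation tests). In the control livers r was 0.55 (adjusted p = 0.14) and in the quercetin livers 0.68 (adjusted p = 0.0545), or 0.91 (adjusted p = 0.00273) without quercetin replicate 2. Between the activators and the repressors Per1, Per2, Per3 and Cry2, all 8 correlations at baseline were negative, from -0.90 to -0.67, and 7 of 8 passed. In the control group all 8 were negative too, from -0.83 to -0.41, and 3 passed. In the quercetin group 7 of 8 were negative and 3 passed. The exception was Arntl with Per3, at 0.30, which rested on quercetin replicate 2, the highest liver for both genes: without it r was -0.13 and all 8 were negative. Clock with Per2 was the pair that passed in all 3 groups, with r of -0.90 (adjusted p = 0.00308), -0.72 (adjusted p = 0.029) and -0.77 (adjusted p = 0.0218). Their rho was -0.87, -0.75 and -0.69, with adjusted p of 0.00528, 0.0324 and 0.0488. Without the 2 livers farthest from the median of Clock, r was -0.86, -0.48 and -0.68, so that the control value leaned on those livers. Without control replicate 1 the control r was -0.61 (adjusted p = 0.117), and Clock with Per1 fell short there as well, at -0.58 (adjusted p = 0.148) against -0.76 (adjusted p = 0.0187).

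Arntl with Per2 had r = -0.90 at baseline (adjusted p = 0.00308, rho = -0.91 with adjusted p = 0.00378, permutation tests), -0.56 in the control (adjusted p = 0.14) and -0.39 in the quercetin group (adjusted p = 0.329). The baseline value was -0.83 without the 2 livers farthest from the median of Arntl. Among the repressors Per1, Per2, Per3 and Cry2, 3 of 6 pairs passed at baseline, 3 in the control livers and 0 in the quercetin livers, where r lay between -0.08 and 0.66. Per1 with Per2 had r of 0.65 (adjusted p = 0.0658) at baseline and 0.86 (adjusted p = 0.00308) in the control livers. Arntl with Nr1d2, its repressor, had r of -0.79 (adjusted p = 0.0181) at baseline, -0.55 (adjusted p = 0.14) and -0.59 (adjusted p = 0.114) in the control and quercetin groups. For Nr1d1 none of its 7 correlations passed in any group, and its r with Arntl was -0.04, -0.04 and 0.02. Some of its other values were larger, with r of 0.63 with Nr1d2 in the control group (adjusted p = 0.0801, permutation test). With Per2 in the quercetin group r was -0.56 (adjusted p = 0.14). With 12 livers a group, a pair that did not pass is not shown to vary independently. Each slide holds at most 2 livers of a group, too few for a correlation within slides.

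**Figure D5:**
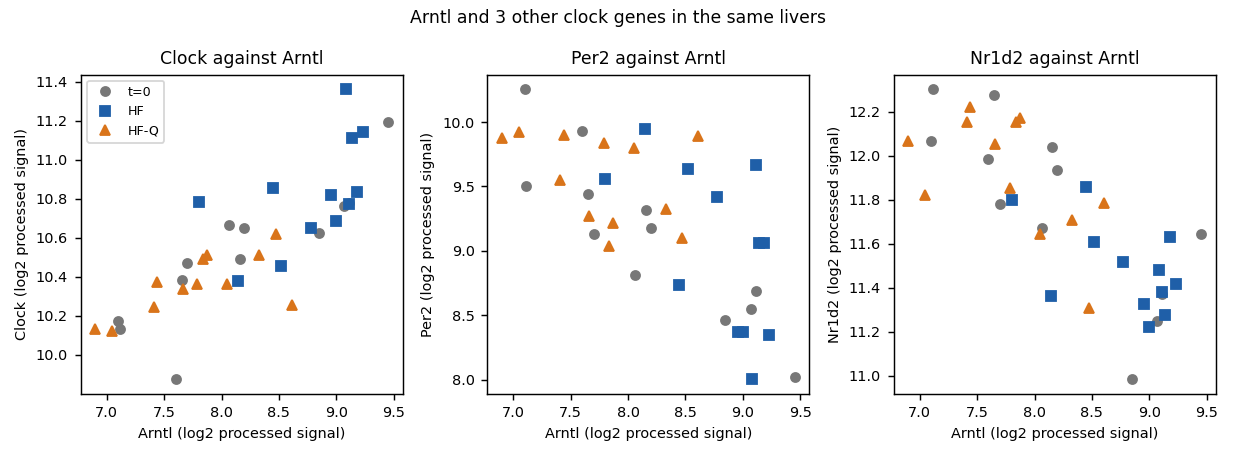
Log2 processed signal of Clock, Per2 and Nr1d2 (y axes) against Arntl (x axis) in the same livers, with 12 livers each of t=0, HF and HF-Q. Clock rises with Arntl and Per2 and Nr1d2 fall with it among the t=0 livers (r of 0.87, -0.90 and -0.79), and HF-Q livers lie at lower Arntl than HF livers.

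The genes whose pattern was most like that of Arntl were ranked by their correlation with it over the 24 control and quercetin livers after each group's mean had been subtracted. No p is given, since these genes were picked for their r. The most negative were Tef (r = -0.82) and Dbp (-0.81), transcription factors that bind D-boxes, the deubiquitinase Usp2 (-0.73), Ccpg1 (-0.72) and Ciart (-0.72), a repressor of Arntl and Clock. Among the most positive were Desi2 (0.82), Leo1 (0.80), Zfp384 (0.79) and Nid2 (0.78). Over the 12 baseline livers, which played no part in the ranking, r with Arntl was -0.92 for Tef, -0.96 for Dbp, -0.97 for Usp2, -0.97 for Ciart, 0.90 for Leo1 and 0.80 for Desi2. It was weaker for Nid2 (0.63), Ccpg1 (-0.47) and Zfp384 (0.32). Clock itself had r = 0.56 with Arntl over the 24 livers and Nr1d2 -0.57, both less extreme than the genes named here.

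Of 29 genes that act on the clock proteins or share their binding sites, 26 were measured. Between quercetin and control 3 of these 26 were called (11.5%, against 2.36% of all probes), each higher. Among them were Ciart, with a log2 difference of 1.03 (adjusted p = 0.0143), and Nampt, which makes a precursor of NAD, with 0.56 (adjusted p = 0.0199). The median difference of the list was -0.02, against 0.01 for all probes. The list was written with earlier results of these data known, so that its counts are no independent support. Between control and baseline 6 were called: Fbxw11 (0.26) and Tipin (0.24) rose, and Ppargc1a (-0.43), Ddx6 (-0.41), Bhlhe41 (-0.28) and Kdm5a (-0.17) fell. Between quercetin and baseline 4 were called: Fbxw11 (0.18) rose, and Kdm5a (-0.22), Ncor1 (-0.16) and Hdac3 (-0.15) fell. Ncor1 was close to the threshold (adjusted p = 0.046, limma), and only 2 of its 5 probes were called. The shares of 23.1% between control and baseline and 15.4% between quercetin and baseline were close to the backgrounds of 21.3% and 11.9%.

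Of 22 known output genes of the liver clock, 20 were measured and 10 were called between quercetin and control (50%, against 2.36% of all probes), 6 higher and 4 lower. Usp2 (1.56), Cyp7a1 (1.08), the rate-limiting enzyme of bile acid synthesis, Por (0.98), the electron donor of the P450 enzymes, Dbp (0.92), Upp2 (0.89) and Tef (0.63) rose. The fatty acid elongase Elovl3 (-1.53), Insig2 (-0.83), a brake on cholesterol synthesis, Leo1 (-0.59) and the vasopressin receptor Avpr1a (-0.50) fell. Their adjusted p lay between 0.000568 (Usp2) and 0.0438 (Upp2). Several of these genes were known from earlier results of the same arrays when the list was written, so that the count is no independent support. Against baseline 7 of 20 were called in the control group (35%, against 21.3% of all probes): Elovl3 (0.95), Nfil3 (0.53), Lonrf3 (0.52), Leo1 (0.50) and Cys1 (0.33) rose, and Upp2 (-1.28) and Por (-0.59) fell. In the quercetin group 2 of 20 were called (10%, against 11.9%), Insig2 (-0.67) lower and Cys1 (0.36) higher.

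Of 33 marker genes measured for 8 liver and blood cell types, hepatocytes included, 1 was called between quercetin and control. This share of 3.03% was close to the 2.36% of all probes. The called marker was the endothelial gene Pecam1, with a difference of 0.38 (adjusted p = 0.00734, limma). The summed level of the 5 endothelial markers overlapped between groups, at 14.17 to 14.57 at baseline, 14.21 to 14.63 in the control livers and 14.22 to 14.58 in the quercetin livers. This sum is mostly the signal of Clec4g, with group means of 13.94 to 14.03. Pecam1, with group means of 7.53 to 7.91, adds little to it, so that the sum cannot bear on the Pecam1 difference. Against baseline 9 of 33 markers were called in the control (27.3%, against 21.3% of all probes) and 8 of 33 in the quercetin group (24.2%, against 11.9%). The erythroid genes Hba-a1 and Hbb-b1 were higher, by 0.93 and 1.08 in the control and by 1.21 and 1.38 in the quercetin group. The other erythroid marker, Alas2, which encodes the first enzyme of heme synthesis in erythroid cells, was at -0.14 (adjusted p = 0.249) in the control group and fell by 0.26 (adjusted p = 0.0172) in the quercetin group. The summed erythroid level was 15.65 to 16.57 at baseline, 16.58 to 18.57 in the control livers and 16.91 to 17.94 in the quercetin livers. S100a9 was higher by 0.72 in both, and Pecam1 lower by 0.34 in the control group. Of the 5 hepatocyte markers, 2 fell and 0 rose in each of these comparisons. They were Cps1 (-0.32) and Cyp2e1 (-0.36) in the control group, and Cps1 (-0.45) and Ttr (-0.33) in the quercetin group. The bile duct markers Krt19 (0.42) and Krt7 (0.29) rose in the control group, Krt7 on 1 of its 2 probes. The lymphocyte marker Ms4a1 rose in both (0.34 and 0.46), and S100a8 (0.39) in the quercetin group. The part of these cells in the clock gene differences was not tested.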

How the data were processed

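Per the labels, each array was hybridized with Cy5-labelled cRNA from 1 liver and a Cy3-labelled equimolar pool of all samples. The scanner files hold the intensity of each spot and of its background, quantified by the authors with Agilent Feature Extraction (version 10.5.1.1 in the submitters' processing notes). The study's methods name another version. The authors' processed table, deposited as log2 values of Cy5 normalized against Cy3 without background subtraction, holds 23256 spots of 21781 probes. Its scale was checked against the scanner files (lowest correlation over arrays 0.9999). Background that is not subtracted can make differences of dim probes smaller. For the dim Per3 probe the quercetin difference of 0.42 was 0.09 after normexp and loess and 0.65 with Feature Extraction's processed signals, so no direction can be assumed.

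Spots of a probe were averaged. Names came from accessions for 24375 of 41174 probes and otherwise from names in the files. Pairs of groups (12 arrays each) were compared with limma 3.58.1 in R 4.3.3 (lmFit and eBayes, two-sided, no covariate), adjusted over all 21781 probes. Probes outside the table were tested on scanner intensity values after normexp (offset 50) and loess, over 41174 probes. Simulated data held 200 changed probes (quercetin against control, 21781 probes). A log2 change of 0.5 was recovered for 89% of them and a change of 1 for 99%. These shares were not worked out for the clock genes. Arntl, Per1 and Per2 spread more than most probes, with pooled SDs of 0.497, 0.482 and 0.515. The median SD of all probes was 0.174 (control) and 0.173 (quercetin). The 89% therefore does not hold for Per1 or Per2, whose missing calls do not show them unchanged. A gene stands for its brightest probe. The correlations were planned for all pairs of the 10 genes, but 28 pairs of 8 genes could be tested. Promoter windows came from RefSeq, where Per2 has no entry. Named were all probes of the 10 genes, called members of the lists, and the 5 genes most and 5 least correlated with Arntl, except genes not reported here. The genes, lists, comparisons and alternatives were chosen with earlier results of these data known. The number of arrays limits the precision. Replicate numbers were checked for pairing: same-numbered livers had a median correlation of deviations of -0.00971 (quercetin and control), and 3 of 12 pairs exceeded 0.1, so they were not treated as paired. Figures were drawn with matplotlib 3.10.9. Serum lipid, body weight and RT-qPCR data were not used here.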

Additional observations from a re-analysis of the deposited data

How the results depend on the processing

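Each comparison was repeated under up to 15 alternative settings. Between quercetin and control, 4 or 5 clock gene probes were called, of 14 tested (11 with a stricter background filter, 18 with no filter), except with the slide as a fixed block, which left 2 (Arntl and Per3). Arntl was called under all 15 alternatives. Of all 21781 probes, 341 were called with median centring in place of loess, 257 with the Cy5 channel alone, 210 with the slide block and 804 with array weights, against 513. The clock partner list went from 3 to 1 called gene with the Cy5 channel alone and to 1 with the slide block, and 7 to 12 of the 20 output genes were called. Between control and baseline, where 1 clock gene probe was called, the count was 0 with median centring, with a stricter background filter, with the slide or the position on the slide as a block and with the methods' t-test, 2 with the Cy5 channel alone or all 36 arrays in 1 fit, 4 with array weights, and 0 without control replicate 1, a liver left out after its values were seen. The Cy5 channel alone gave 3073 calls over all probes against 4645, and the slide block 4 called output genes against 7. Between quercetin and baseline, 0 clock gene probes were called throughout. Over all probes the Cy5 channel alone gave 1405 calls and array weights 4220, against 2596, and the higher calls were 1442 of 2596, against 557 of 1405 with the Cy5 channel alone and 1550 of 3540 with Feature Extraction's signals. There the partner list went from 4 to 2 with median centring, the slide block or the position block, and to 1 with the Cy5 channel alone. The output list went from 2 to 1 with the Cy5 channel alone or the slide block and to 4 with the position block. The cause of these shifts was not tested.

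With the replicate number as a block, the clock gene probes called were 5, 2 and 0 for quercetin against control, control against baseline and quercetin against baseline, and the partner list went from 4 to 1 in the last. The labels do not say what the numbers share, and same-numbered livers did not deviate together, with 3, 4 and 4 of 12 pairs over a correlation of 0.1.

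Differences that changed sign were small, and none of them was called in its comparison as reported. Between quercetin and control, Nr1d1 A_51_P223776 (-0.004) was 0.016 with loess, with or without a filter, 0.014 with median centring, 0.055 with array weights and 0.043 without quercetin replicate 2, and A_52_P130961 (-0.008) was 0.017 with the slide block. Per2 A_52_P536869 (0.055) was -0.005 with loess, with or without a filter, -0.019 with Feature Extraction's signals and -0.042 with array weights. Between control and baseline, Clock A_52_P279391 (0.023) was -0.009 with the slide block, Cry2 A_51_P135542 (-0.143) and Nr1d1 A_52_P130961 (-0.022) were 0.007 and 0.002 with Feature Extraction's signals, Per1 (-0.082) was 0.058 with array weights, Per2 A_51_P282760 (-0.093) was 0.072 with the Cy5 channel alone, and Nr1d1 A_52_P130952 (-0.012) was 0.005 with loess. Between quercetin and baseline, Cry2 A_52_P248378 (0.022) was -0.011 with loess, -0.032 with median centring, -0.035 with the Cy5 channel alone and -0.008 with the slide block, Cry2 A_51_P135542 (0.065) was -0.009 without quercetin replicate 2, and Per2 A_52_P536869 (-0.056) was 0.089 with the Cy5 channel alone.

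The SD of Per3, a dim probe, was 0.16, 0.12 and 0.09 after normexp and loess (baseline, control, quercetin) against 0.25, 0.24 and 0.24, and for Arntl, a brighter one, 0.66, 0.39 and 0.38 against 0.79, 0.46 and 0.53. Leaving out quercetin replicate 2 moved the SD of Cry2 A_51_P135542 in the quercetin group from 0.28 to 0.12. The pairs of genes with a called correlation were 14 or 15 at baseline, 5 or 6 in the control and 3 or 4 in the quercetin group. Leaving out control replicate 1 also turned small values: Nr1d1 A_51_P223776 and A_52_P130961 were both 0.002 between quercetin and control (0.043 and -0.036 without quercetin replicate 2), Clock A_52_P279391 was -0.025, Per1 0.053 and Nr1d1 A_52_P130952 0.003 between control and baseline, and r of Per3 with Nr1d1 in the control group was 0.038 against -0.052. Leaving out quercetin replicate 2 turned r of Arntl with Per3 from 0.298 to -0.134 and of Nr1d1 with Nr1d2 from 0.051 to -0.035 in the quercetin group.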
